A study of Mus musculus with 36 samples.

Results

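The genes described here are the 8 MHC class II genes H2-Aa, H2-Ab1, H2-Eb1, Cd74, Ciita, H2-DMa, H2-DMb1 and H2-DMb2, found by their symbols among 55414 gene identifiers that the leukaemia and control count tables share. All 8 were found. They were followed through 36 bulk RNA-seq libraries, in 9 groups of 4, from mice that all carried the fusion Kmt2a-AFF1, which joins the genes of a histone methyltransferase and of a transcription elongation factor partner. The leukaemia groups were HSC/MPP, LMPP and LK/CLP cells from the central nervous system (CNS) and the same 3 cell types from the bone marrow (BM) of 12 mice with terminal leukaemia. Their genotype is labelled miR-130b overexpressing Kmt2a-AFF1+, while the design text of the series names miR-130a. The control groups were the same 3 cell types from the BM of 4 miR-scramble overexpressing Kmt2a-AFF1+ mice without leukaemia. No source used here gives age, strain or the promoter that drives the fusion.

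All cells were sorted as lineage-negative (Lin-) and c-Kit+. HSC/MPP, the stem and multipotent progenitor gate (HSC below), was Sca-1+ Flt3-. LMPP, the lymphoid-primed multipotent progenitor gate, was Sca-1+ Flt3+. LK/CLP (LK below) was Sca-1-. Each leukaemia mouse gave 1 CNS and 1 BM library of a single cell type, so the 12 mice make 12 CNS and BM pairs, 4 for each cell type. Each control mouse gave all 3 cell types, and control CNS was not analysed here.

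MHC class II molecules are pairs of an alpha and a beta chain that carry peptides from engulfed proteins to the cell surface, where CD4+ T cells read them. In mouse, H2-Aa and H2-Ab1 form I-A, and H2-Eb1 is the beta chain of I-E. Cd74, the invariant chain, holds the groove of a new molecule shut. H2-DMa with H2-DMb1 or H2-DMb2 forms H2-DM, which takes out the last piece of Cd74 and lets a peptide in. Ciita is the coactivator that switches the family on. It does not bind DNA itself, and works through a complex of RFX, CREB and NF-Y proteins that sits on the X and Y boxes upstream of these genes. Dendritic cells, B cells and macrophages are the blood cells best known for class II, and it is not a hallmark of stem cells.

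Upstream windows from RefSeq (build GRCm38.p6, 250 bases before a start of transcription) were at hand for 5 of the 8 genes: H2-Aa, H2-Eb1, H2-DMa, H2-DMb1 and H2-DMb2. The stretches below are shown because they hold the Y box on which the common control of the family is known to rest, and because H2-Eb2, a close paralog of H2-Eb1, serves as a contrast. Capitals mark ATTGG, the reverse of the NF-Y motif CCAAT, and AGCAAC, a core of the X box bound by RFX. Each runs 5′ to 3′ on the strand of its gene.
H2-Aa: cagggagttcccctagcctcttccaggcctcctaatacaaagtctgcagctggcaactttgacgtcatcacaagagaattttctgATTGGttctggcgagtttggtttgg
H2-Eb1: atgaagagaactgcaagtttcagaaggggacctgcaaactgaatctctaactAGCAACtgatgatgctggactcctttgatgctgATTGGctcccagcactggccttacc
H2-DMb1: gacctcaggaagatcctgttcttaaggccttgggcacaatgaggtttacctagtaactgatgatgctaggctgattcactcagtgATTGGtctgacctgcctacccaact
H2-DMb2: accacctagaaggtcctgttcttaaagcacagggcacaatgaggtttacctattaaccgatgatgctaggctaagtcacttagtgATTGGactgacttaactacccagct
H2-Eb2: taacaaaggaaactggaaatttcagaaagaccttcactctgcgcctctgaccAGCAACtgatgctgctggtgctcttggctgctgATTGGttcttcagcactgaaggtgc
They lie at chr17:34287847-34287956 on the minus strand (H2-Aa), and on the plus strand at chr17:34305723-34305832 (H2-Eb1), chr17:34153045-34153154 (H2-DMb1), chr17:34145074-34145183 (H2-DMb2) and chr17:34325490-34325599 (H2-Eb2).

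ATTGG stood at position -48 from the start of H2-Aa, at -59 from that of H2-Eb1, -61 from that of H2-DMb1 and -90 from that of H2-DMb2. H2-DMa has a pair of windows, and ATTGG was found in the second of them, at -198. By itself this motif is common: CCAAT on either strand was in 33.8% of the 32851 windows of all genes, and AGCAAC on either strand in 12.2%. AGCAAC followed by ATTGG after 20 to 40 bases on the strand of the gene was in 51 windows, or 0.155%, a spacing that was chosen after these sequences had been seen. H2-Eb1 held that arrangement with 27 bases between the motifs, as did H2-Eb2 with 27, H2-Oa with 28 and H2-Ob with 25. H2-Aa, H2-DMa, H2-DMb1 and H2-DMb2 held no AGCAAC in these windows, which says only that these exact letters were not there.

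The libraries held 1.91 M to 30.4 M counts (M, mega). Reads were also counted on 1487 smell, taste and pheromone receptor genes that blood cells do not use. Their level per length of gene was taken as the background of each library, and it corresponded to between 0.455% and 27.7% of all counts. A gene was called above background where its count exceeded 3 times that background plus 10 counts in at least 4 libraries. All 8 genes passed in the leukaemia libraries, where 15846 genes did, and 7 passed in the control libraries, where 11154 did. Ciita was the exception: its median in the control groups was 2.1 to 2.3 times background. A library that stands apart is CNS HSC replicate 1, in which the summed level of 14 microglia markers, in CPM (counts relative to the scaled total of the library, the unit of all levels here), was 2868, against 72.3 to 211 in the other CNS HSC libraries.

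The sort gates were checked against their own genes. Flt3, the receptor that splits the LMPP from the HSC gate, had a median of 627 CPM in CNS LMPP, 390 in BM LMPP and 74.5 in control LMPP. In the Flt3- gate its median was 33.3 CPM in CNS HSC, 46.2 in BM HSC and 11.5 in control HSC. Ly6a, which encodes Sca-1, had medians of 40.1 and 31.1 CPM in CNS and BM LMPP, 14.6 and 13.02 in CNS and BM HSC, and 2.04 to 2.59 in the 3 LK groups. In control LMPP and HSC its medians were 6.08 and 5.28 CPM. Within each tissue both genes were higher, by the median, in the gates that select for them. Kit, which encodes the c-Kit of all 3 gates, had medians of 84.8, 207 and 213 CPM in CNS HSC, LMPP and LK, 154, 167 and 183 CPM in BM, and 43.9, 46.3 and 195 CPM in control BM, so it was lower in control HSC and LMPP than in control LK. Its lowest levels were 24.3 CPM in a CNS HSC library and 23.02 CPM in a BM HSC library.

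Class II transcripts were most abundant in leukaemia LMPP cells from the CNS. The 8 genes together took 0.456% to 0.895% of all counts in CNS LMPP libraries and 0.0689% to 0.569% in BM LMPP libraries. They took 0.0958% to 0.198% in CNS LK, 0.0570% to 0.124% in BM LK, 0.0176% to 0.231% in CNS HSC and 0.0136% to 0.0887% in BM HSC. In control BM the share was 0.0163% to 0.0451% in LMPP, 0.0119% to 0.0179% in HSC and 0.00802% to 0.0138% in LK. All counts include identifiers without a symbol, which took 8.42% to 21.2% in control LMPP and 37.4% to 46.0% in CNS LMPP. Their part in these shares was not tested. In bulk RNA, a larger share of cells with class II and more class II RNA per cell cannot be told apart.

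**Figure D1:**
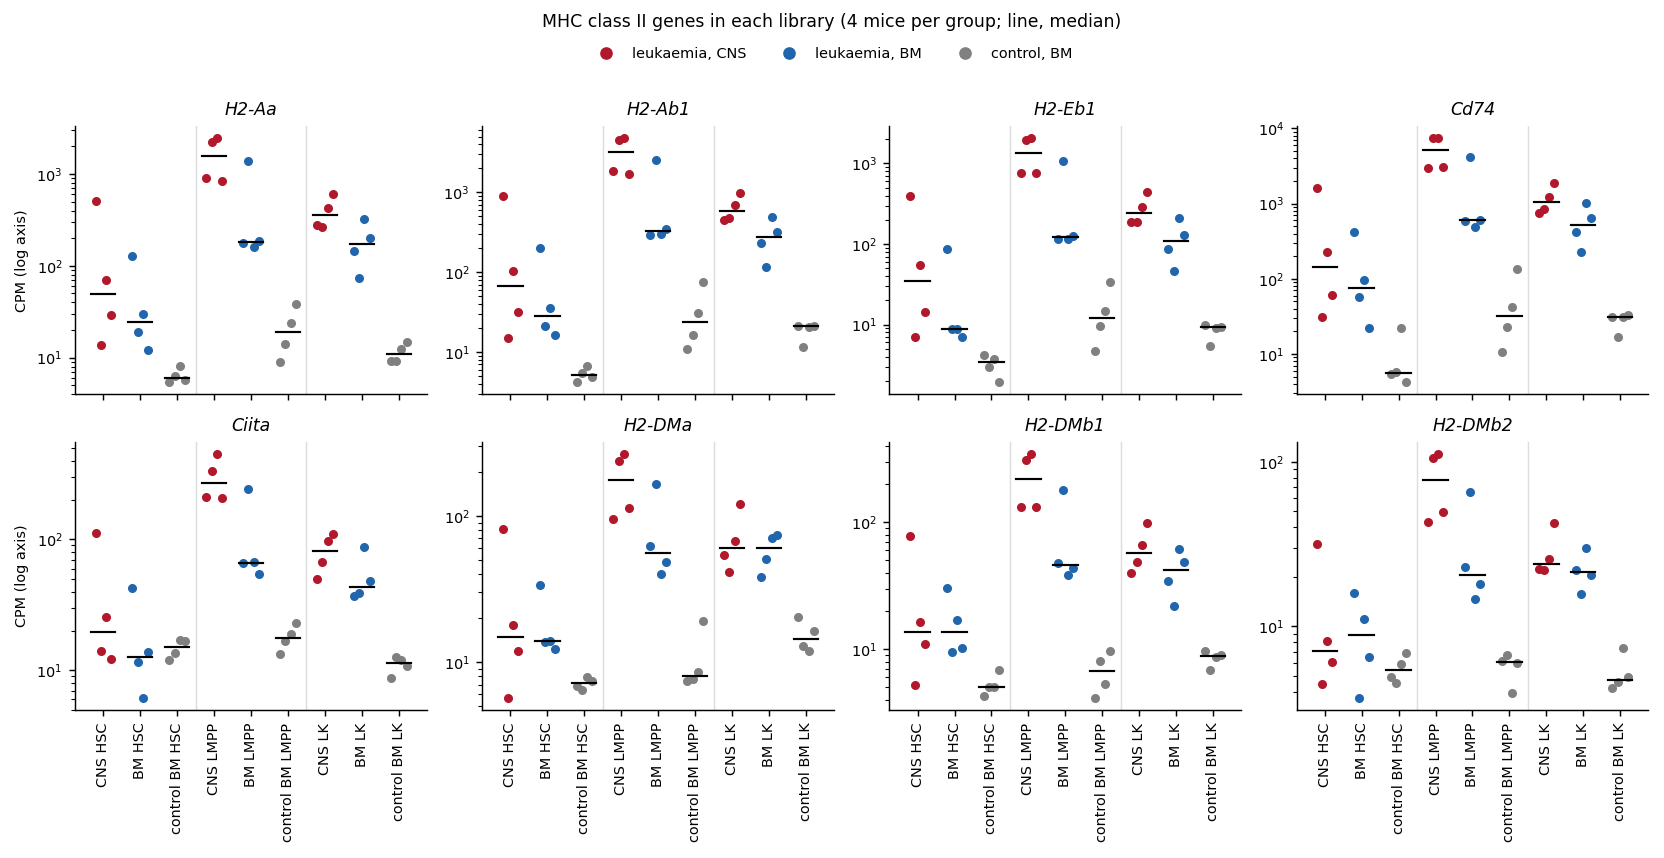
Level of each of the 8 class II genes in every library, in CPM (log axis), for HSC, LMPP and LK cells of leukaemia CNS, leukaemia BM and control BM; each point is 1 library and each line the median of 4. CNS LMPP has the highest median in every panel, and BM LMPP replicate 2 stands above the other BM LMPP libraries.

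H2-Ab1, the beta chain of I-A, shows the pattern in full. It had 1838, 4475, 4759.8 and 1681 CPM in CNS LMPP, 295, 2512, 303 and 349 CPM in BM LMPP, and 10.8, 16.1, 30.7 and 75.1 CPM in control LMPP (replicates 1 to 4). In LK cells it had 455, 473, 691 and 989.7 CPM in CNS, 229.7, 116, 493 and 323 CPM in BM, and 21.4, 11.5, 20.7 and 21.1 CPM in control. CNS and BM overlapped in both cell types, in LMPP only through BM replicate 2, and every leukaemia library was above every control library. In HSC it had 909, 14.8, 105 and 31.3 CPM in CNS, 203, 21.2, 35.4 and 16.2 CPM in BM, and 4.18, 5.47, 6.74 and 4.81 CPM in control. Replicate 1 was far above the rest in both CNS and BM HSC, and these are the libraries of the same mouse.

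The other chains of the surface molecules ran beside it. H2-Aa, the alpha chain of I-A, had 903, 2224, 2459.6 and 845 CPM in CNS LMPP, 175, 1373, 159 and 185 CPM in BM LMPP, and 9.01, 14.1, 23.95 and 38.2 CPM in control LMPP. H2-Eb1, the beta chain of I-E, had 765, 1952, 2057 and 767 CPM in CNS LMPP, 117, 1069, 116 and 125 CPM in BM LMPP, and 4.75, 9.53, 14.6 and 33.8 CPM in control LMPP. For both genes the CNS and BM libraries overlapped only through BM replicate 2, and the leukaemia and control libraries did not overlap. The lowest control groups were in HSC, where H2-Aa had 5.39 to 8.01 CPM and H2-Eb1 1.93 to 4.18 CPM. Reads of H2-Eb1 and its paralog H2-Eb2 may be split by the counting, but H2-Eb2 itself stayed at 0 to 5.74 CPM in all libraries. H2-Ea-ps, the entry for the alpha chain of I-E, a gene known to be inactive in some strains, stayed at 0 to 2.95 CPM.

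Cd74, the invariant chain, followed the same pattern. It had 2994, 7396, 7404 and 3031 CPM in CNS LMPP, 591, 4156, 491 and 604 CPM in BM LMPP, and 10.6, 22.9, 42.1 and 135 CPM in control LMPP. In LK cells it had 755, 841, 1229 and 1889 CPM in CNS, 414, 229, 1020.0 and 639 CPM in BM, and 30.6, 17.1, 30.7 and 33.2 CPM in control. The same 2 features returned: BM LMPP replicate 2 alone reached into the CNS range, and the LK groups of CNS and BM overlapped. In HSC, Cd74 had 1619.6, 30.7, 228 and 60.2 CPM in CNS, 421, 56.8, 95.1 and 21.9 CPM in BM, and 5.48, 5.71, 21.97 and 4.21 CPM in control, and the CNS and BM libraries overlapped, while the lowest BM library met the highest control library.

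Ciita, the coactivator, moved over a smaller range. It had 211, 334, 452 and 208 CPM in CNS LMPP, 66.2, 244, 66.8 and 54.6 CPM in BM LMPP, and 13.4, 16.7, 18.9 and 23.0 CPM in control LMPP. In LK cells it had 49.7, 67.3, 97.5 and 110.4 CPM in CNS, 36.9, 39.2, 88.2 and 48.2 CPM in BM, and 8.81, 12.6, 12.1 and 10.8 CPM in control. Here too leukaemia stood apart from control, and CNS overlapped BM. In HSC it had 112, 14.2, 25.4 and 12.3 CPM in CNS, 42.5, 11.5, 6.17 and 13.7 CPM in BM, and 12.1, 13.5, 17.2 and 16.8 CPM in control, groups that overlapped and whose medians were 2.0 to 2.9 times background.

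The H2-DM genes kept the order of the groups in LMPP. H2-DMa had 94.9, 239, 266 and 113 CPM in CNS LMPP, 62.0, 166, 40.2 and 48.7 CPM in BM LMPP, and 7.46, 7.67, 8.49 and 19.0 CPM in control LMPP. H2-DMb1 had 133, 308, 346 and 133 CPM in CNS LMPP, 47.7, 178, 38.6 and 43.7 CPM in BM LMPP, and 4.15, 8.03, 5.34 and 9.62 CPM in control LMPP. H2-DMb2 had 43.1, 106, 112 and 49.3 CPM in CNS LMPP, 23.1, 65.5, 14.7 and 18.1 CPM in BM LMPP, and 6.19, 6.73, 3.94 and 5.95 CPM in control LMPP. Again BM LMPP replicate 2 was the only BM library in the CNS range, and control libraries stood below all leukaemia libraries. H2-DMb1 and H2-DMb2 are neighbours and close paralogs, so their separate values are uncertain.

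Ranked by the median, CNS LMPP was the highest of the 9 groups for all 8 genes, and it did not overlap the group next in order, which was CNS LK for 7 genes and BM LK for H2-DMa. It did overlap BM LMPP, which ranked lower, for all 8 genes through BM LMPP replicate 2. For H2-DMa it also overlapped CNS LK (lowest CNS LMPP library 94.9 CPM, highest CNS LK library 121 CPM). The share of all genes without overlap is not given here. Every later pair of neighbours in the order overlapped, except that for H2-Aa, H2-Ab1 and H2-Eb1 the lowest group, control HSC, lay wholly below the group before it, which was control LK for H2-Aa and H2-Ab1 and leukaemia BM HSC for H2-Eb1. Compared per length of transcript, Cd74 led in CNS LMPP with a median of 3105 CPM per kb. H2-Ab1 followed with 1229 CPM per kb, H2-Eb1 with 699.6, H2-Aa with 412, H2-DMb1 with 131, H2-DMa with 51.0, H2-DMb2 with 44.3 and Ciita with 28.6. In control HSC the 8 genes lay between 1.59 and 3.33 CPM per kb, with no such spread, but at medians only 2.22 to 4.36 times background.

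Within each mouse, the surface chain genes and Cd74 were higher in the CNS library. With the scaling taken from genes above background, H2-Ab1 was higher in CNS in 12 of 12 mice, by a mean log2 difference of 1.55. H2-Eb1 was higher by 1.74, H2-Aa by 1.46 and Cd74 by 1.45, each in 12 of 12 mice. With the scaling taken from all genes tested, each of these 4 was higher in 11 of 12, since HSC mouse 2 then turned, its median over the 8 genes being -0.77 in place of 0.60. Ciita was higher in 10 of 12 mice (mean 1.05), H2-DMb1 in 9 (0.81), H2-DMb2 in 9 (0.63) and H2-DMa in 8 (0.48).

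**Figure D2:**
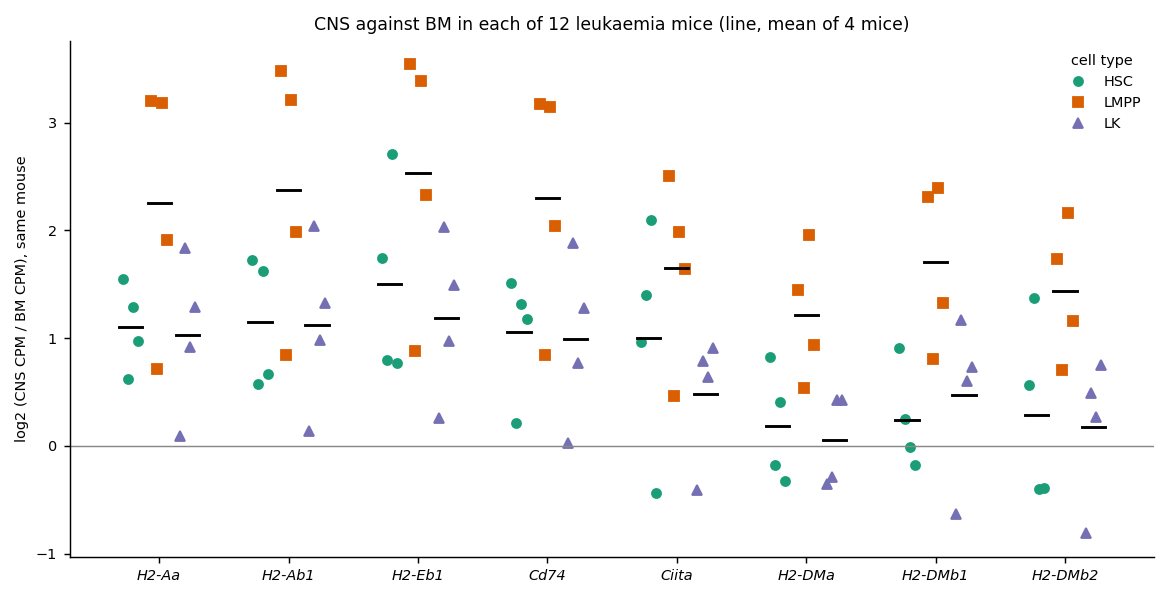
Difference between the CNS and the BM library of each mouse (log2 CNS over BM, scaled on genes above background) for the 8 genes, with the mice shown by cell type; each point is 1 mouse and each line the mean of 4. All points of H2-Aa, H2-Ab1, H2-Eb1 and Cd74 lie above 0, and those of LMPP reach highest.

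The difference was widest in LMPP. H2-Ab1 differed by 3.48, 0.85, 3.21 and 1.99 on the log2 scale in LMPP mice 1 to 4. It differed by 1.73, 0.58, 1.62 and 0.67 in HSC mice and by 0.14, 2.04, 0.98 and 1.33 in LK mice. Ciita differed by 2.51, 0.47, 1.99 and 1.64 in LMPP mice, by 0.96, 1.40, 2.10 and -0.44 in HSC mice and by -0.41, 0.79, 0.64 and 0.91 in LK mice. In LMPP all 8 genes were higher in CNS in 4 of 4 mice. In the other cell types H2-DMa was higher in 2 of 4 mice each, with mean differences of 0.18 in HSC and 0.05 in LK.

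CNS was tested against BM with edgeR's quasi-likelihood test, and p-values were adjusted by the Benjamini-Hochberg method over all genes tested. Without regard to which libraries came from the same mouse, 0 of 8 class II genes and 0 of 40332 genes were called at an adjusted p under 0.05 over the 3 cell types together (0.0% called). The fold changes were all above 0, at log2 0.66 to 1.73. An unadjusted p of 0.05 was passed by 7 of the 8 and by 794 of all 40332 genes. DESeq2, a second count test, also called 0 of the 8 (0.183% of genes called). These comparisons set each CNS group against the BM group of the same cell type, without pairing the libraries of a mouse.

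With the mouse as a block and the test held to genes above background, 6 of the 8 genes were higher in CNS, against 2.64% of the 15846 genes called in either direction and 1.78% called higher. H2-Eb1 rose by log2 1.75 ± 0.25 (SE), with mean levels of 593 CPM in CNS and 167 CPM in BM (edgeR adjusted p = 0.00396). H2-Ab1 rose by 1.56 ± 0.23, with means of 1369 CPM in CNS and 408 CPM in BM, and H2-Aa by 1.47 ± 0.21, with means of 719 CPM in CNS and 236 CPM in BM (edgeR adjusted p = 0.00396 for both). Cd74 rose by 1.46 ± 0.23, with means of 2290 CPM in CNS and 728 CPM in BM (edgeR adjusted p = 0.00525). The surface chains and their chaperone thus form the group with the largest shifts among the 8.

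Ciita rose by 1.05 ± 0.21, with means of 141 CPM in CNS and 59.8 CPM in BM (edgeR adjusted p = 0.0188), and H2-DMb1 by 0.80 ± 0.17 (edgeR adjusted p = 0.0223). H2-DMa, at 0.48 ± 0.14 (edgeR adjusted p = 0.077), and H2-DMb2, at 0.61 ± 0.17 (edgeR adjusted p = 0.0874), did not pass. When each of the 12 mice was left out in turn, H2-Aa, H2-Ab1, H2-Eb1 and Cd74 passed in 12 of 12 fits, Ciita in 9 and H2-DMb1 in 6. Without the mice of CNS HSC replicate 1 and of BM LMPP replicate 3 together, 4 of the 8 passed, and H2-Eb1 stood at 1.63 (edgeR adjusted p = 0.0439). With the mouse as a block but all 40332 genes tested, H2-Eb1 alone passed, at 1.75 ± 0.33 (edgeR adjusted p = 0.0256; 0.0744% of genes called).

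Cell type by cell type, the same blocked test found all 8 genes higher in CNS in LMPP, where 2.03% of 15846 genes were called and 1.68% were higher. The shifts were 2.55 ± 0.44 for H2-Eb1, 2.39 ± 0.42 for H2-Ab1, 2.32 ± 0.41 for Cd74 and 2.26 ± 0.39 for H2-Aa (log2 ± SE). They were 1.68 ± 0.30 for H2-DMb1, 1.65 ± 0.36 for Ciita, 1.39 ± 0.30 for H2-DMb2 and 1.19 ± 0.24 for H2-DMa, and the edgeR adjusted p of the 8 lay between 0.0182 and 0.0311. The calls turned on single mice: without LMPP mouse 1, or without LMPP mouse 3, 0 of the 8 passed, with log2 changes of 0.97 to 2.26, while 8 passed without mouse 2 and 7 without mouse 4. Without the block, 0 of the 8 passed in LMPP (log2 1.17 to 1.97), and 5 of the 8 and 684 of 40332 genes had an unadjusted p under 0.05.

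In HSC and LK none of the 8 passed edgeR's test with the block. The log2 changes were 0.20 to 1.52 in HSC (0.0% of genes called) and 0.05 to 1.19 in LK (0.00631% called). At an unadjusted p under 0.05 were 5 of the 8 and 1062 of 15846 genes in HSC, and 4 of the 8 and 651 genes in LK. Without the block the log2 changes were 0.36 to 2.03 in HSC and 0.22 to 1.21 in LK. The unblocked HSC values rest on CNS replicate 1: without that library, and with the BM library of its mouse kept, the change was -0.17 to -0.72 for the 8 genes. With both libraries of that mouse left out, the blocked values stayed above 0 for 7 genes, at 1.43 for H2-Eb1, 1.02 for Ciita, 0.97 for H2-Aa, 0.96 for H2-Ab1, 0.91 for Cd74, 0.12 for H2-DMb2 and 0.012 for H2-DMb1, with H2-DMa at -0.03. Whether the CNS difference varied between the cell types was tested with an interaction term: edgeR called 0 of the 8, with or without the block. With the block 3 of the 8, and 777 of 15846 genes, had an unadjusted p under 0.05. The cell types were therefore not shown to differ in the CNS difference.

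The shifts were uneven within the family. Each gene was set against H2-Ab1 of the same library, which removes the scaling of the library. Relative to H2-Ab1, H2-DMa was lower in CNS in 12 of 12 mice, with a mean log2 change of -1.07 ± 0.59 (SD over 12 mice), and H2-DMb1 in 12 of 12, with -0.74 ± 0.41. H2-DMb2 was lower in 11 of 12 mice (-0.92 ± 0.74) and Ciita in 10 (-0.50 ± 0.64). The partners of the surface molecules kept closer to H2-Ab1, with -0.09 ± 0.17 for H2-Aa, -0.10 ± 0.23 for Cd74 and 0.19 ± 0.30 for H2-Eb1.

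**Figure D3:**
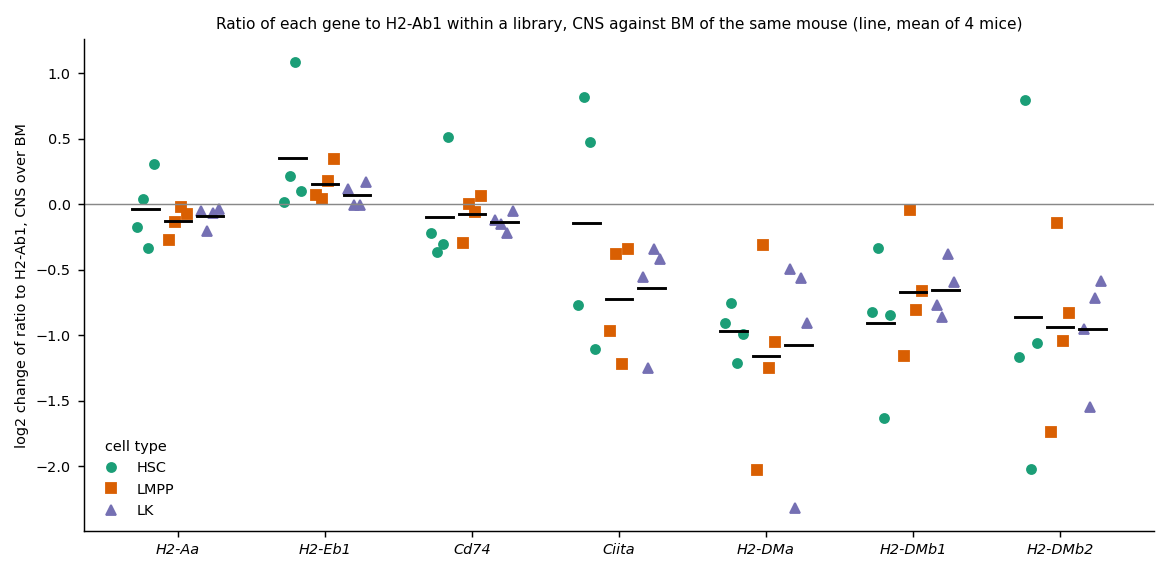
Change in the ratio of each gene to H2-Ab1 between the CNS and the BM library of a mouse (log2, CNS over BM); each point is 1 of 12 mice. H2-Aa, H2-Eb1 and Cd74 lie near 0, and all 12 points of H2-DMa and H2-DMb1 lie below 0.

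Part of the counts at low levels is background, so the ratios were also taken after subtracting each library's background, a step chosen after the data had been seen. H2-DMa then stood at -1.14 and H2-DMb1 at -0.77, each lower in 12 of 12 mice, and H2-DMb2 at -0.94, lower in 11. Ciita stood at -0.38 ± 1.22, lower in 10. With no background subtracted, and as a share of H2-Ab1 per length, H2-DMa had a median of 4.07% in CNS LMPP and 10.1% in BM LMPP, against 28.0% in control LMPP and 102% in control HSC, where the medians of H2-DMa and H2-Ab1 were 2.85 and 2.79 times background. For Cd74 the medians were 251% in CNS LMPP and 259% in BM LMPP, against 214% in control LMPP. These ratios show unequal change, and not which gene changed.

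Leukaemia BM was next set against control BM within each cell type. In LK, the cell type with the fewest genes called, all 8 class II genes were higher in leukaemia (3.52% of genes called, 2.22% higher). Cd74 was higher by log2 4.39 ± 0.80 (SE; edgeR adjusted p = 0.000374), H2-Aa by 4.06 ± 0.66 (edgeR adjusted p = 6.47e-05) and H2-Ab1 by 3.98 ± 0.71 (edgeR adjusted p = 0.000291). H2-Eb1 was higher by 3.82, H2-DMb1 by 2.30, Ciita by 2.28, H2-DMb2 by 2.07 and H2-DMa by 1.94. No leukaemia BM LK library overlapped a control LK library in any of the 8 genes, and all 8 passed when any 1 library was left out. How many of all genes did not overlap is not given here.

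In LMPP all 8 were higher too, by log2 2.49 to 4.86 (edgeR adjusted p between 1.38e-07 and 8.55e-06), but 62.8% of all genes were called and 26.0% called higher, so that many genes moved. Here the median of all genes was -1.10 (-0.12 in HSC and -0.25 in LK), and with the scaling taken from genes above background it was 0.02. On that scaling 7 of the 8 were higher (64.7% of genes called, 32.7% higher), by 3.39 for Cd74 and 3.25 for H2-Ab1, and H2-DMb2 at 0.77 did not pass (edgeR adjusted p = 0.0855). In HSC 6 of the 8 were higher (21.4% called, 20.3% higher), with Cd74 at 4.10 ± 0.79 and H2-Ab1 at 3.81 ± 0.71 (edgeR adjusted p = 5.82e-05 for H2-Ab1). Ciita, at 0.41, and H2-DMb2, at 0.85, did not pass in HSC (edgeR adjusted p = 0.584 and 0.144). With genes above background alone, 4 of the 8 passed in HSC, all higher (48.1% of genes called, 27.6% higher), so that the count called was near the share of all genes called. They were Cd74 at 2.71, H2-Ab1 at 2.45, H2-Eb1 at 1.82 and H2-Aa at 1.65, while Ciita turned to -0.74 and H2-DMb2 to -0.31.

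The leukaemia and control libraries differ in disease, in the overexpressed microRNA and in the table they came in, and these cannot be told apart. Background also moved with the groups. It corresponded to 21.6% to 27.7% of counts on identifiers with an exon length in control HSC and 6.51% to 12.4% in control LK. Its part in the result was not tested.

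Among control progenitors, class II was lower in HSC than in LMPP. Of the 8 genes, 4 fell in HSC against 0.183% of 41609 genes called. H2-Ab1 was lower by log2 -2.46 ± 0.35 (edgeR adjusted p = 0.000136), Cd74 by -2.29 ± 0.46 (edgeR adjusted p = 0.0198), H2-Eb1 by -2.06 ± 0.33 (edgeR adjusted p = 0.000876) and H2-Aa by -1.59 ± 0.27 (edgeR adjusted p = 0.00206). H2-DMa (-0.44), H2-DMb1 (-0.27), Ciita (-0.17) and H2-DMb2 (0.02) did not pass. With genes above background alone the same 4 passed (2.23% called). H2-Aa, H2-Ab1 and H2-Eb1 passed in 17 of 17 alternatives, but Cd74 in 10 of 17, with adjusted p from 0.00026 to 0.14. Its call was lost with RLE scaling (edgeR adjusted p = 0.0526), with DESeq2 (adjusted p = 0.0948), without control HSC replicate 1, 2 or 4 (log2 -2.10, -2.11 and -2.07), and without control LMPP replicate 3 (-2.40) or 4 (-1.37). LK had no such firm place: against LK, HSC had 6 genes lower (44.7% called) and LMPP had 2 higher, Ciita and H2-Aa, and 1 lower, H2-DMa (39.8% called). With genes above background alone HSC had 4 higher than LK (70.5% called) and LMPP had 7 of 7 higher (66.3% called), so the directions against LK were not the same in both tests. With RLE scaling of all genes, HSC still had 6 lower and LMPP had 1 lower.

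Among leukaemia cells the same order of HSC below LMPP was seen in both tissues, though edgeR's test over all genes called 0 of the 8. In BM, HSC was lower than LMPP by log2 -1.66 to -3.63 (edgeR adjusted p = 0.295 for all 8, 0.0% of genes called). All 8, and 6785 of 40332 genes, had an unadjusted p under 0.05. For 7 of the 8 genes the libraries did not overlap. DESeq2 called 7 of the 8 lower (3.03% of genes called). In CNS, HSC was lower than LMPP by -2.63 to -3.59 (edgeR adjusted p from 0.0508 to 0.158, 0.0595% called), with no overlap for any of the 8. All 8, and 7935 of 40332 genes, had an unadjusted p under 0.05. With genes above background alone 8 passed (7.41% of genes called lower, edgeR adjusted p from 0.00803 to 0.021). For neither tissue is the share of all genes without overlap given here. Without CNS HSC replicate 1, 8 passed in the test over all genes as well, where 6261 of 40288 genes were called.

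LMPP was higher than LK in CNS by 1.41 to 2.38 (0.00496% called), with 7 of 8 not overlapping. All 8, and 1083 of 40332 genes, had an unadjusted p under 0.05. Of the 8, edgeR called 0 and DESeq2 called 3 (0.806% called). The share of all genes without overlap is not given here either. In BM, LMPP exceeded LK by 0.46 to 1.62 with 0 of the 8 called (0.0% called). At an unadjusted p under 0.05 were 0 of the 8 and 975 of 40332 genes. HSC was lower than LK by -0.96 to -1.29 in CNS and by -1.18 to -2.004 in BM, with 0 of the 8 called in either (0.0% called in each). At an unadjusted p under 0.05 were 2 of the 8 and 5429 of 40332 genes in CNS, and 6 of the 8 and 2354 genes in BM. Without CNS HSC replicate 1, 8 of the 8 passed as lower in CNS HSC than in CNS LK, with 5190 of 40288 genes called.

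The machinery around class II was followed through 4 lists of genes, with the blocked test over the 3 cell types. Of 16 accessory genes, 13 were tested and 7 rose in CNS, where 2.64% of all genes were called and 1.78% called higher. The median log2 change was 0.68 against 0.00 for all genes. With the block over all genes edgeR called Lgmn alone (0.0744% of genes called), without the block it called 0 of the list, and DESeq2 called Lgmn, Cd83 and Cd86 (0.183% called). Without the block, 8 of the list and 794 of 40332 genes had an unadjusted p under 0.05. Lgmn, a lysosomal protease that helps to cut antigens, rose by 1.86 ± 0.29 (edgeR adjusted p = 0.00524). Cd83, which steadies class II at the surface, rose by 1.50 ± 0.27 (edgeR adjusted p = 0.0141), and Cd86, a costimulator of T cells, by 1.26 ± 0.31 (edgeR adjusted p = 0.0402). Ctss, the protease of the last step of Cd74 breakdown, rose by 1.15 ± 0.23 (edgeR adjusted p = 0.0188).

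The other 3 that rose were H2-Oa by 0.73 and H2-Ob by 0.66, which together form an inhibitor of H2-DM, and Ifi30, a reductase of disulphide bonds in antigens, by 0.68. The upstream windows of H2-Oa and H2-Ob held the AGCAAC and ATTGG arrangement of H2-Eb1. H2-Eb2, which held it as well, stayed about background in all 9 groups. The windows of the other accessory genes that rose were not looked at singly. In LMPP alone 5 accessory genes rose (median log2 1.16; 2.03% of genes called, 1.68% higher), among them Lgmn by 2.73, Cd83 by 2.29 and March1, a ubiquitin ligase that removes class II from the surface, by 1.44. Over all genes in LMPP, edgeR called 0 of the list with the block (0.0% of genes called) and 0 without it, and DESeq2 called Cd83 (0.0347% called). With the block 8 of the list and 643 of 40332 genes had an unadjusted p under 0.05, and without it 4 of the list and 684 genes.

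**Figure D4:**
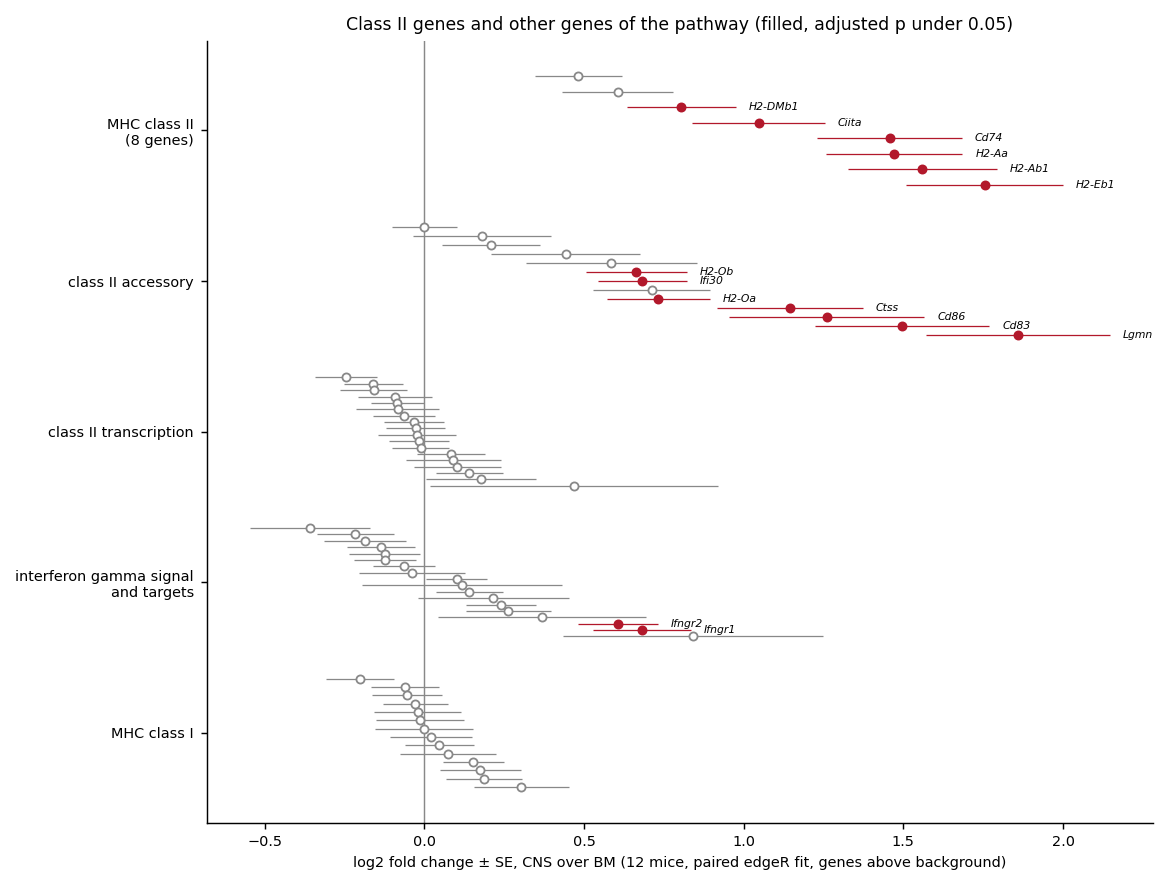
Log2 change, CNS over BM, of the 8 class II genes and of the genes of 4 lists (blocked edgeR test on genes above background, 12 mice), with bars of 1 SE. The 8 class II genes lie to the right of 0, as do the 13 accessory genes tested apart from March8, which sits on the line (0.00043 ± 0.10). The transcription and class I lists centre on 0.

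Among the known regulators of class II, 19 genes in the list, 18 were tested and 0 were called (edgeR; 1 at an unadjusted p under 0.05; 0 by DESeq2), with a median of -0.03. Rfx5, the DNA-binding subunit of RFX, stood at -0.01, Nfya, a subunit of NF-Y, at -0.25, Irf8 at 0.09 and Spi1 at 0.10. Interferon gamma is the best known inducer of Ciita in other cells. Of 20 genes of its signal and targets, 18 were tested and 2 rose, the receptor chains Ifngr1 by 0.68 (edgeR adjusted p = 0.029) and Ifngr2 by 0.61 (edgeR adjusted p = 0.021), with a median of 0.11 over the list (2.64% of all genes called). Neither was called with the block over all genes, without the block or by DESeq2. In that order 3, 3 and 4 of the list had an unadjusted p under 0.05, as had 666, 794 and 1503 of 40332 genes. Of 14 class I genes, 0 were called (edgeR; 0 at an unadjusted p under 0.05; 0 by DESeq2), and their median was 0.01.

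In leukaemia against control BM the 4 lists were counted with genes above background. Of 14 class I genes, 14 were higher in leukaemia LMPP (median log2 1.65; 64.7% of genes called, 32.7% higher), 13 in HSC (1.63; 48.1% called, 27.6% higher) and 8 in LK (0.85; 17.2% called, 10.0% higher). Of 17 class II transcription genes tested, 14 were higher and 1 lower in LMPP, 13 higher and 1 lower in HSC, and 7 higher and 0 lower in LK. Of 11 accessory genes tested, 5 were higher and 2 lower in LMPP (median 0.23), 4 higher and 0 lower in HSC (-0.05), and 4 higher and 1 lower in LK (0.67). Of 16 interferon gamma genes tested, 8 were higher and 3 lower in LMPP, 9 higher and 2 lower in HSC, and 6 higher and 0 lower in LK.

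Markers of cells that use class II were counted in the same libraries, and their part in the results was not tested. Of 11 conventional dendritic cell markers, 9 had a higher mean in CNS than in BM, and none was at 0 in as many as 12 leukaemia libraries. Their summed level was 2462 to 5589.6 CPM in CNS LMPP and 1316 to 4617 CPM in BM LMPP, 1043 to 2255 CPM in CNS LK and 641 to 1573 CPM in BM LK, and 147 to 1609 CPM in CNS HSC and 139.7 to 811 CPM in BM HSC. In control BM it was 102 to 499.9 CPM. The sum was higher in CNS in 10 of 12 mice, with a median log2 difference of 0.59. The list includes Flt3, a gene of the sort, and Wdfy4, which made up most of the sum, with means of 1462 CPM in CNS and 842 CPM in BM. Of the narrower markers, Zbtb46 had means of 63.8 and 24.9 CPM, Xcr1 42.7 and 10.5 CPM, and Clec9a 80.6 and 46.9 CPM, each in CNS and BM. Not all markers of the list rose: Cd209a and Ccr7 had lower means in CNS than in BM, by small margins.

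**Figure D5:**
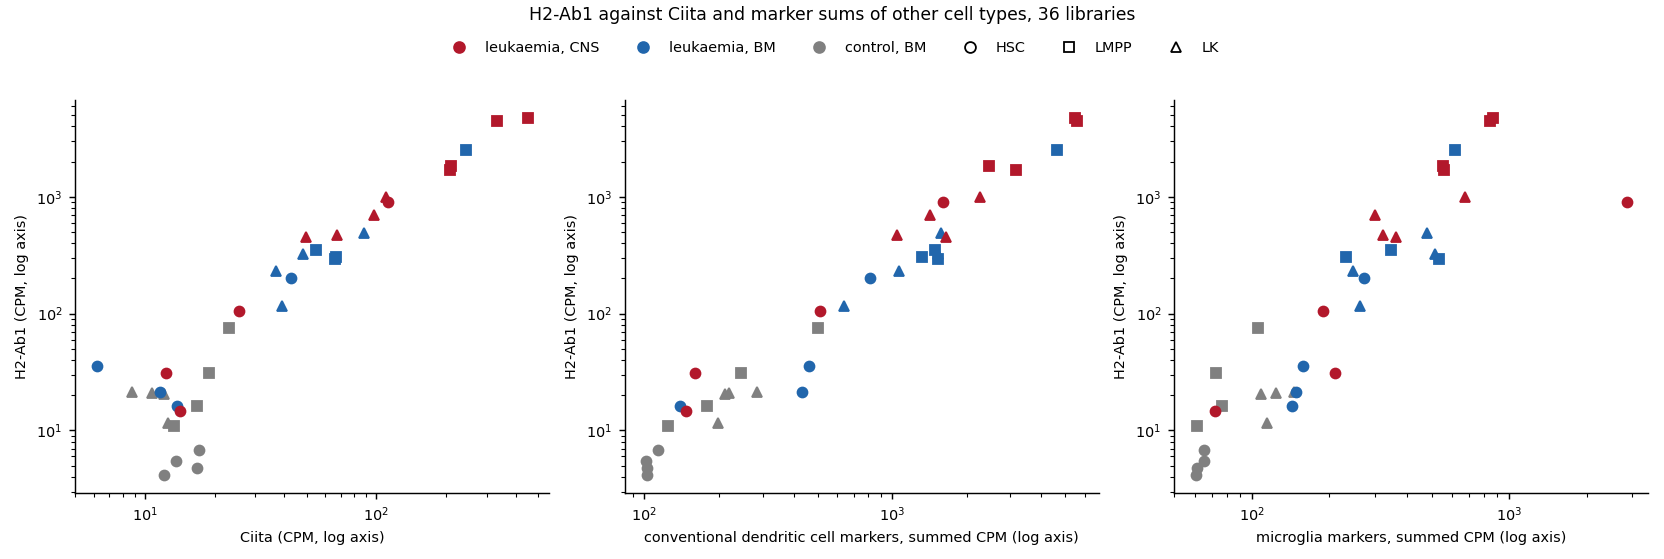
H2-Ab1 (CPM, log axis) in each of 36 libraries against Ciita, against the summed conventional dendritic cell markers and against the summed microglia markers (CPM, log axes). The 4 CNS LMPP libraries and BM LMPP replicate 2 are highest on H2-Ab1, and CNS HSC replicate 1 stands alone on the microglia axis.

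All 14 microglia markers had a higher mean in CNS, and the sum was higher in 10 of 12 mice (median log2 0.42). It was 72.3 to 2868 CPM in CNS HSC, 552 to 869 in CNS LMPP and 302 to 673 in CNS LK, against 143 to 273 in BM HSC, 233 to 614 in BM LMPP and 248 to 517 in BM LK. Selplg, which progenitors also use, made up 680.1 of the 869 CPM in CNS LMPP replicate 3. C1qa had means of 30.5 CPM in CNS and 1.69 CPM in BM, with its highest level of 275 CPM in CNS HSC replicate 1. All 8 border macrophage markers had a higher mean in CNS, and their sum was higher in 11 of 12 mice (median log2 0.93). The sum was 54.7 to 1281 CPM in CNS HSC, with the highest in replicate 1, 29.7 to 345 in CNS LMPP and 46.0 to 53.1 in CNS LK. In BM it was 45.4 to 97.1 CPM in HSC, 21.7 to 68.5 in LMPP and 31.8 to 44.9 in LK. In LMPP mice 1 to 4 the log2 difference of this sum was 2.57, 2.33, 3.66 and -0.49. The 10 B cell markers gave no such shift: 3 had a higher mean in CNS, and the sum stayed at 29.4 to 78.1 CPM in all leukaemia libraries. Of 8 monocyte markers, 7 had a higher mean in CNS, with the sum higher in 8 of 12 mice. Of 10 plasmacytoid dendritic cell markers 1 did, with the sum higher in 7 of 12, and of 12 mature neutrophil markers 3 did, with the sum higher in 3 of 12.

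The genes whose pattern was most like the mean of H2-Aa, H2-Ab1, H2-Eb1 and Cd74 were sought among 15838 genes, as a description over libraries that share mice and depth. Over 24 leukaemia libraries the closest was Plbd1, a lysosomal phospholipase-like protein, with Pearson's r = 0.991 and Spearman's rho = 0.989. It had means of 362 CPM in CNS and 118 CPM in BM. Among those that followed in r were Ifi205 (0.979), Id2 (0.977), Naaa (0.975) and Cst3 (0.970). Id2 is a regulator of dendritic and innate lymphoid cells, Naaa is a lysosomal hydrolase, and Cst3 is an inhibitor of cathepsins. Ciita reached r = 0.930 and H2-DMb2 0.916 with the same mean.

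Over the 12 CNS minus BM differences, which share no library, Plbd1 was again closest (r = 0.987 and rho = 0.965, and r = 0.962 without the 2 mice farthest from the median). Rab43, a small GTPase (0.964), Id2 (0.954) and Irf5, an interferon regulatory factor (0.949), came next. Of the class II genes outside that mean, H2-DMb1 had r = 0.901, H2-DMa 0.822, Ciita 0.793 and H2-DMb2 0.706. Without the 2 farthest mice these were 0.727, 0.535, 0.636 and 0.334, so that the closeness of H2-DMb2 rests on those mice.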

How the data were processed

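RNA of sorted cells was made into libraries with the SMARTer stranded total RNA pico input kit, per the labels' protocols. The deposited tables hold whole-number counts per gene for 24 leukaemia and 12 control libraries. Their names call the values normalised, but all values are whole and the library totals are unequal, so the authors' values were used as raw counts. The build is GRCm39, per the submitters' processing notes, which also name DESeq2. No source used here gives the aligner, the counter or its strand setting, so antisense and overlapping reads cannot be told apart. GENCODE vM21 gave symbols to 52081 of 55414 identifiers, and gave the exon lengths. The 3333 identifiers without a symbol stayed in the fits. They took from 8.42% of counts in control LMPP replicate 3 to 47.4% in CNS LK replicate 3. The gene Gm10800 alone took from 0.164% in CNS LMPP replicate 4 to 28.8% in CNS HSC replicate 4.

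Tests were edgeR 4.0.16 (R 4.3.3) quasi-likelihood fits with TMM scaling on genes that reached 10 counts in 4 or more libraries, 1 term per group, and Benjamini-Hochberg adjustment over all genes tested (threshold 0.05). Levels are TMM-scaled CPM over 36 libraries. Alternatives were genes above background alone, no filter on low counts, RLE scaling, DESeq2 1.42.0, a block for the mouse or the replicate number, and leaving out each library or mouse. The pairing of CNS with BM comes from mouse identifiers in the labels. Deviations of the 2 libraries of a mouse from their group means correlated over genes with a median of 0.285 (-0.283 to 0.695), over 0.1 in 9 of 12 pairs. Replicates are separate mice, per the labels. All 8 genes were named in every comparison. The fits were tested on simulated data. The members and the lists were chosen with earlier results of these data known. Sequences are from RefSeq. One gene with a pattern like that of the class II genes is not reported here.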

Additional observations from a re-analysis of the deposited data

Results flagged for a closer look

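In 24 of 72 groups of 4 libraries (8 genes in 9 groups), the gap of the highest or lowest library to its neighbour exceeded Dixon's critical share of the range, where chance flags about 1 in 20 groups. The 8 genes share libraries, so these are few separate events.

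CNS HSC replicate 1 stood apart in this way, as the highest of its group, for all 8 genes. It had 508 CPM of H2-Aa, 909 of H2-Ab1, 391 of H2-Eb1, 1619.6 of Cd74, 112 of Ciita, 80.7 of H2-DMa, 77.5 of H2-DMb1 and 31.7 of H2-DMb2. BM HSC replicate 1, from the same mouse, was the highest of its group for all 8 and stood apart in this way for 4 of them, with 128 CPM of H2-Aa, 203 of H2-Ab1, 86.2 of H2-Eb1 and 33.8 of H2-DMa. BM LMPP replicate 2 was the highest of its group for all 8 and stood apart for 7, with 1373 CPM of H2-Aa, 2512 of H2-Ab1, 1069 of H2-Eb1, 4156 of Cd74, 244 of Ciita, 178 of H2-DMb1 and 65.5 of H2-DMb2.

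Of the others that stood apart, CNS LK replicate 4 was the highest for H2-DMb2 (42.3 CPM), control HSC replicate 3 for Cd74 (21.97 CPM) and control LMPP replicate 4 for H2-DMa (19.0 CPM). Control LK replicate 2 was the lowest for H2-Ab1 (11.5 CPM) and Cd74 (17.1 CPM).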

How the results depend on the processing

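Depth and background limit the low groups: the medians of the 8 genes in control HSC were 2.22 to 4.36 times background, and those of Ciita in the control groups 2.13 to 2.29 times. The number of class II genes called, out of 8, moved with the fit as follows. In CNS against BM over all cell types it was 0 (0.0% of all genes called), and 1 with the replicate block (mouse) (0.0744%). With the block on genes above background it was 6 (2.64%). In LMPP it was 0 (0.0%) and, with the block on genes above background, 8 (2.03%). DESeq2 called 7 in BM HSC against LMPP (3.03%) and 3 in CNS LMPP against LK (0.806%), where edgeR called 0. In CNS HSC against LMPP the count was 0 (0.0595%), but 8 with genes above background (12.97%). It was 4 with no filter on low counts (0.157%), 8 with RLE scaling (1.65%) and 8 with DESeq2 (22.06%). In control LMPP against LK it was 3 (39.8%), but 7 with genes above background (66.3%). There RLE gave 1 (36.8%) and DESeq2 gave 2 (37.0%). In control HSC against LK it was 6 (44.7%), but 4, all higher, with genes above background (70.5%). In control HSC against LMPP it was 4 (0.183%), but 3 with RLE (0.106%) and 3 with DESeq2 (0.281%). In leukaemia against control HSC it was 6 (21.4%), but 4 with genes above background (48.1%), with RLE (18.8%) and with DESeq2 (32.0%). In leukaemia against control LMPP it was 8 (62.8%), but 7 with genes above background (64.7%). The block on the mouse or the replicate number changed no other count of calls.

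With 1 library or mouse left out, the count ranged from 4 to 7 in CNS against BM over all cell types and from 0 to 8 in LMPP (both with the block and genes above background), from 0 to 8 in CNS HSC against LK and 0 to 8 in CNS HSC against LMPP. CNS HSC against LMPP had 4 called without BM HSC replicate 4, 4 without BM LMPP replicate 2, 3 without CNS LMPP replicate 4, 2 without CNS LMPP replicate 1 and 2 without BM LK replicate 2. The range was 5 to 7 in control HSC against LK, 1 to 5 in control LMPP against LK, 3 to 4 in control HSC against LMPP and 4 to 7 in leukaemia against control HSC, and the count stayed at 8 in leukaemia against control LMPP and LK. The share of all genes called in these fits is not given here, except above for CNS HSC without its replicate 1.

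Of the values of single genes under the other settings, 584 kept direction and side of the threshold, 58 passed it anew, 13 lost it and 21 turned (log2). With genes above background, control HSC against LK turned to 0.73 for H2-Aa, 0.24 for H2-Eb1, 0.013 for Cd74, 0.52 for H2-DMa and 0.87 for H2-DMb1, and control LMPP against LK to 0.77 for H2-DMa and 0.97 for H2-DMb1. H2-DMb2 turned in control HSC against LK to -0.019 with no filter, -0.087 with RLE and -0.085 with DESeq2, in control LMPP against LK to -0.031, -0.063 and -0.062 in the same order, and in control HSC against LMPP to -0.024 with RLE and -0.022 with DESeq2. In leukaemia against control HSC, Ciita turned to -0.74 with genes above background, -0.52 with RLE and -0.53 with DESeq2, and H2-DMb2 to -0.31, -0.088 and -0.092. The cause of these turns was not tested.

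Leaving out 1 library turned CNS against BM in HSC, with ranges of -0.41 to 2.86 for H2-Aa, -0.52 to 3.38 for H2-Ab1, -0.17 to 3.80 for H2-Eb1, -0.55 to 2.98 for Cd74, -0.18 to 1.94 for Ciita, -0.72 to 1.07 for H2-DMa, -0.72 to 1.10 for H2-DMb1 and -0.68 to 0.75 for H2-DMb2. It turned CNS against BM in LK for H2-DMa (-0.11 to 0.38). In the blocked test on genes above background, H2-DMa turned in HSC to -0.026 without mouse 1, alone or together with LMPP mouse 3, and in LK to -0.072 without mouse 3 and -0.071 without mouse 4, and H2-DMb2 turned in HSC to -0.064 without mouse 2 and in LK to -0.013 without mouse 4 (up to 0.49 without mouse 1). Leaving out 1 library turned BM LMPP against LK for H2-Aa (-0.045 to 1.74), H2-DMa (-0.18 to 0.63) and H2-DMb2 (-0.21 to 0.66). In control it turned HSC against LK for H2-DMb2 (-0.077 to 0.21), LMPP against LK for H2-Ab1 (-0.041 to 0.88), Cd74 (-0.23 to 1.00) and H2-DMb2 (-0.10 to 0.29), and HSC against LMPP for H2-DMb2 (-0.14 to 0.13). In leukaemia against control HSC it turned Ciita (-0.44 to 0.70). With background subtracted, an alternative chosen after seeing the data, no mean ratio to H2-Ab1 turned.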
